A study of Homo sapiens with 12 samples.

Results

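The genes described here encode the subunits of the human proteasome and the chaperones that assemble it. They were taken from the deposited table by symbol, as the rows named PSMA to PSMG followed by a number, without the interferon-inducible subunits PSMB8 and PSMB9, and with at least 120 counts summed over all libraries. Of 45372 rows, 65 matched the name pattern, 48 of these had a count in any library, and 43 were kept. These 43 genes held between 381 counts (PSMA6) and 72109 counts (PSMA7) in all, and each of them passed the filter on low counts that left 12878 genes for testing. PSMB10, the third interferon-inducible catalytic subunit, had 22 counts and was not kept.

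The proteasome degrades proteins that carry ubiquitin chains. Its core particle is a barrel of stacked alpha and beta rings with the proteolytic sites inside, and the regulatory particle on its end binds ubiquitin, unfolds the substrate with a ring of ATPases and feeds it into the barrel. Dedicated chaperones build the alpha ring and the base of the regulatory particle, and other caps, the activators encoded by PSME1 to PSME4, can open the barrel without ubiquitin. Keratinocytes use this pathway to clear oxidised proteins and to turn over regulators of growth and differentiation.

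Transcripts were counted in HaCaT cells, an immortalized keratinocyte line that arose spontaneously from human skin. Cultures lay in phosphate-buffered saline during each exposure to 408 nm LED light (50 J/cm2 at 4.6 mW/cm2), given 3 times a week for as long as 14 weeks, or were kept in the dark. The groups were dark_3, dark_14 and dark_42 (kept in the dark alongside 3, 14 or 42 irradiations) and blue_3, blue_14 and blue_42 (irradiated 3, 14 or 42 times), with 2 libraries each, lettered a and b, all from the same line with no other treatment named. The labels do not say whether a and b were separate cultures, so each p-value reflects library-to-library spread that could be technical. The submitters chose the light dose for its toxicity, and the RNA came from the cells that remained, so fewer cells of a kind and less RNA per cell cannot be told apart in these bulk samples.

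Library totals ran from 2073160 counts (blue_14 b) to 8183941 (blue_42 b), and 3 counts corresponded to 1.45 and 0.367 CPM in these libraries, respectively. CPM are depth-scaled counts that use TMM library sizes. All 10 keratinocyte markers examined were present in every library, from TP63 at 36.1 to 77.8 CPM to SFN at 745 to 1700 CPM. Fibroblast, leukocyte, endothelial and melanocyte markers together reached at most 14.8, 4.34, 5.73 and 1.91 CPM in any library, while the 6 neuronal markers ranged from a sum of 17.8 CPM (dark_42 b) to 84.2 CPM (dark_14 a).

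For 37 of the 43 genes RefSeq gives a promoter (45 in all, build GRCh38.p14). The core of the antioxidant response element, TGACNNNGC, through which the transcription factor NFE2L1 drives proteasome genes, was searched on both strands in the 250 bases before each start. It occurred in 12 of the 45 promoters (26.7%) and in 10.9% of 35116 promoters of all genes. The GC box GGGCGG occurred in 66.7% against 42.6%, and the ETS-type motif CCGGAAG in 22.2% against 8.5%. The core of the interferon-stimulated response element occurred in 4 of 45 (8.9%) against 3.0%, at PSMA4, PSMB4, PSME2 and PSMG4. CCAAT occurred in 37.8% against 32.0% and TATAAA in 8.9% against 10.7%. All these motifs were searched on both strands. A match is a run of letters and not a site shown to be bound, and genes with a match went in both directions below. Stretches upstream of 3 genes are given 5′ to 3′ on the gene's own strand, with the TGACNNNGC match in capitals, and stop where an annotated GENCODE exon begins, short of the RefSeq start. They were chosen because PSME1 had the higher level in later dark cultures while PSMD3 and PSMD12 had the lower. PSME1 (chr14:24135944-24136157, plus strand) has its match 86 bases before the RefSeq start (the stretch stops 36 bases short of it), PSMD3 (chr17:39980557-39980796, plus strand) 37 bases before (10 short), and PSMD12 (chr17:67366628-67366827, minus strand) 165 bases before (50 short).
PSME1: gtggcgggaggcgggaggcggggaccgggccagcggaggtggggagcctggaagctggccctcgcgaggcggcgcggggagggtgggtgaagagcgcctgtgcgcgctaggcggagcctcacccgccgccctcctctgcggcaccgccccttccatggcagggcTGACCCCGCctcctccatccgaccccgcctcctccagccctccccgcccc
PSMD3: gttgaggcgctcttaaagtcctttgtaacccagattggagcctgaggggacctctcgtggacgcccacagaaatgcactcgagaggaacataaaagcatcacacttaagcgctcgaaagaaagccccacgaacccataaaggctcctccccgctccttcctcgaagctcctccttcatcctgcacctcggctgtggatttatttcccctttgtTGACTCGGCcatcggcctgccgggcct
PSMD12: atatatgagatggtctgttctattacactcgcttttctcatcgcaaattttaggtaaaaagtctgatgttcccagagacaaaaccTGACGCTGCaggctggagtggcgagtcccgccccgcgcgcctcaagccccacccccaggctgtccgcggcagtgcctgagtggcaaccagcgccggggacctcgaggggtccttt

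The 43 genes together took a smaller share of the counts in the later cultures. Their share was 0.948% and 0.954% in the dark_3 libraries and 0.896% and 0.908% in blue_3. It was 0.714% and 0.815% in dark_14, 0.813% and 0.699% in blue_14, 0.889% and 0.821% in dark_42, and 0.847% and 0.795% in blue_42. Each of the 8 later libraries therefore lay below each of the 4 libraries at 3 irradiations, whereas dark and irradiated libraries overlapped at 14 and at 42 irradiations. At 3 irradiations both irradiated libraries lay below both dark ones. The lowest shares were those of blue_14 b and dark_14 a, which held 2073160 and 3561392 counts in all. Blue_14 a and dark_14 b held 3517401 and 7950222 counts, and the part of depth was not tested.

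**Figure D1:**
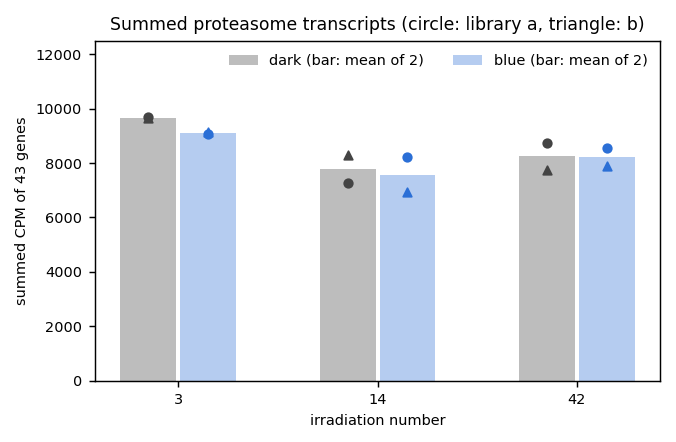
Summed level of the 43 proteasome genes (vertical axis, CPM) by irradiation number (horizontal axis) in dark (grey) and irradiated (blue) cultures; bars are means of 2 libraries, circles library a and triangles library b. The dark mean was 9673 CPM at 3 irradiations, 7781 at 14 and 8242 at 42, and the irradiated means were 9105, 7568 and 8224 CPM.

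The first question was whether blue light changed proteasome transcripts at a given irradiation number. No gene of the 43 was called, that is, had an adjusted p under 0.05, in blue against dark after 3, 14 or 42 irradiations. Over all tested genes 0.0155%, 0% and 1.23% were called in the same comparisons. DESeq2 called none of the 43 either. At an unadjusted p under 0.05 there were 5, 3 and 5 of the 43 genes, against 6.92%, 5.89% and 13.3% of all tested genes. The average of the 3 light effects gave no call among the 43 (0.0699% of all genes), with 1 gene at an unadjusted p under 0.05 (8.29% of all genes).

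The data bounded most of these differences, as far as the spread between libraries a and b stands for that between cultures. The 95% interval of the log2 difference stayed within 0.585 of 0, a 1.5-fold change, for 35 of the 43 genes after 3 irradiations, 36 after 14 and 38 after 42. The interval of the averaged effect stayed within that bound for 42. The exception was PSMA6, an alpha-ring subunit with few counts.

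After 3 irradiations the differences were small and mostly negative. The median log2 difference was -0.09 over the 43 genes and 0.01 over all tested genes, with 30 of the 43 below 0. Both blue_3 libraries lay below both dark_3 libraries for 21 of the 43 genes, against 19.9% of all genes. They lay above them for 5 of the 43, against 23.7% of all genes. All 7 beta-ring genes (median -0.15) and 7 of the 8 lid genes (median -0.13) were below 0, while the 6 ATPases were split 3 and 3. Neuronal markers, read as a check on other cell types, had sums of 25.2 and 28.5 CPM in dark_3, against 52.6 and 69.6 CPM after light. Of the 6, 2 were called higher, the only 2 calls over all tested genes in this comparison, and their part was not tested.

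PSMD5, a chaperone of the base, stood at 43.3 and 41.1 CPM in dark_3 and at 34.0 and 28.5 CPM in blue_3, and the groups did not overlap. Its log2 difference was -0.43 ± 0.15 (SE, adjusted p = 0.525). PSMD11, a lid subunit whose supply can limit assembly of the regulatory particle, stood at 317 and 296 CPM in dark_3 and at 261 and 201 CPM in blue_3. It too did not overlap, at a log2 difference of -0.41 ± 0.14 (adjusted p = 0.533). PSMB2, a beta-ring subunit without a proteolytic site, differed by -0.32 ± 0.15 (adjusted p = 0.719). In PSMD5, PSMD11 and PSMB2 the lower value was that of blue_3 b. On the other side were PSMA6 at 0.30 ± 0.34, the base chaperone PSMD9 at 0.28 ± 0.24 and the ATPase PSMC5 at 0.13 ± 0.11, with adjusted p of 0.849 or more.

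After 14 irradiations the median difference was -0.04 (-0.007 over all genes), with 18 of the 43 above 0. Both blue_14 libraries lay above both dark_14 libraries for 6 genes and below them for 6, as they did for 16.6% of all genes in either direction. PSMC5, an ATPase of the base that helps to unfold substrates, stood at 132 and 144 CPM in dark_14 and at 114 and 106 CPM in blue_14. These groups did not overlap, and the log2 difference of -0.32 ± 0.11 had an adjusted p of 0.785. PSMD10 and PSMG4, chaperones of the base and of the alpha ring, differed by -0.31 ± 0.18 and -0.26 ± 0.15. PSMA6 differed by 0.74 ± 0.35, the alpha-ring subunit PSMA5 by 0.34 ± 0.18 and PSMD11 by 0.28 ± 0.15, with adjusted p of 0.834 or more. The blue_14 b value of PSMA6, at 10.5 CPM, was the highest of the 12 libraries and came from the shallowest one.

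After 42 irradiations the median difference was -0.02 (-0.003 over all genes), with 20 genes above 0 and 23 below. Both blue_42 libraries lay above both dark_42 libraries for 7 of the 43 genes and below for 9 (21.3% and 20.9% of all genes). All 7 alpha-ring genes were below 0 (median -0.12), and 5 of the 7 beta-ring genes were above 0 (median 0.06). The 10 keratinocyte markers gave sums of 5318 and 4730 CPM in dark_42, against 6357 and 5914 CPM in blue_42. Of these markers 1 was called higher, and their part was not tested.

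PSMG3, which pairs with PSMG4 in a chaperone of alpha-ring assembly, stood at 104 and 84.0 CPM in dark_42 and at 130.5 and 130.6 CPM in blue_42. Irradiated libraries were higher without overlap, and the log2 difference of 0.47 ± 0.14 missed the threshold (adjusted p = 0.0954). PSMC4, another ATPase of the base, stood at 71.5 and 46.95 CPM in dark_42 and at 93.1 and 86.1 CPM in blue_42, again without overlap, at 0.60 ± 0.21 (adjusted p = 0.214). Here dark_42 b was the lowest of all 12 libraries. Both genes passed the threshold when dark_42 a was left out or when genes were not filtered on low counts. PSMG2, which pairs with PSMG1 in another alpha-ring chaperone, stood at 57.3 and 49.8 CPM in dark_42 and at 45.5 and 40.4 CPM in blue_42, a difference of -0.32 ± 0.13 (adjusted p = 0.254). PSMA2 (-0.27 ± 0.12) and PSMA3 (-0.23 ± 0.16) followed on the lower side, and PSMB2 (0.27 ± 0.15) on the higher.

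**Figure D2:**
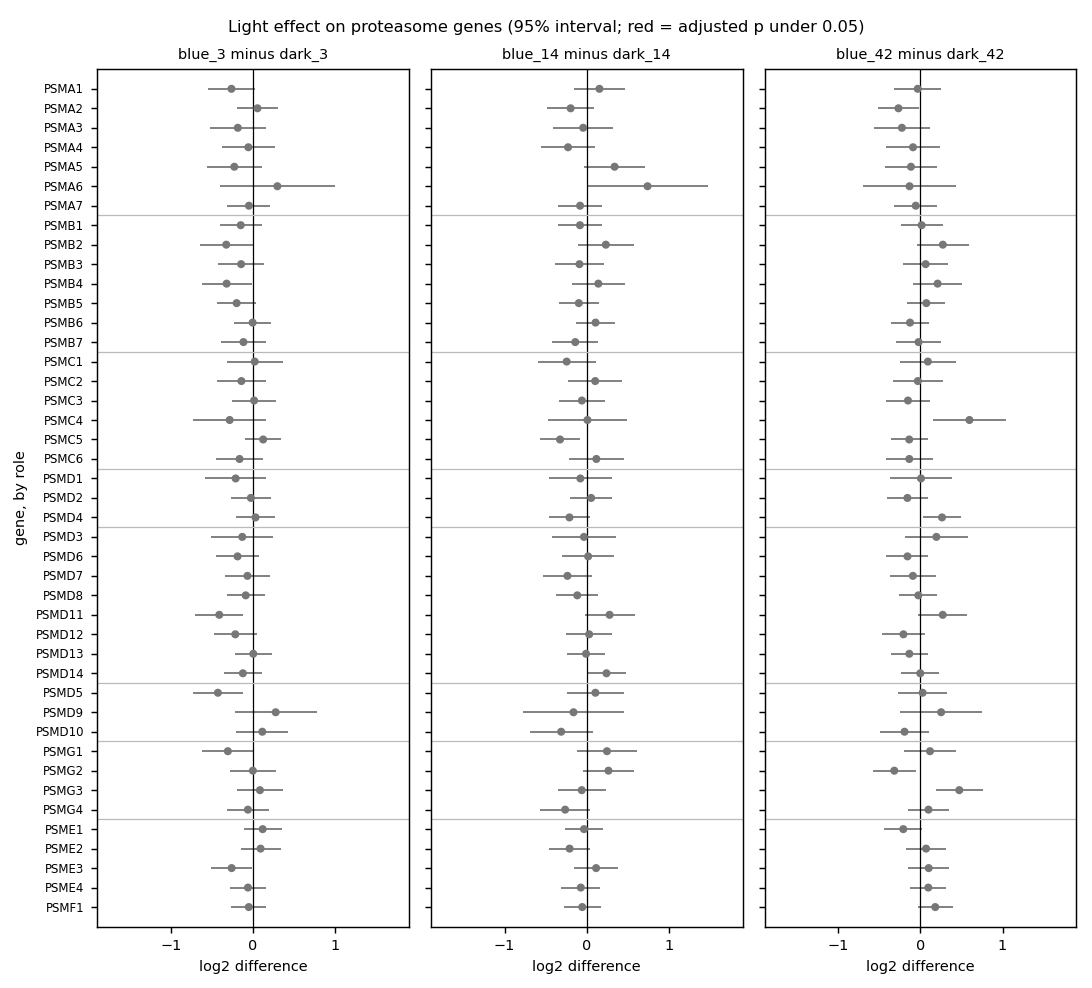
Log2 difference of each of the 43 genes (rows, ordered by role from alpha ring to inhibitor) between irradiated and dark cultures after 3, 14 and 42 irradiations; points are edgeR estimates and lines 95% intervals. No point is red, the colour for an adjusted p under 0.05, and most intervals cross 0.

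Genes with fixed roles in catalysis, ubiquitin handling and gating showed differences of the same small size. The catalytic subunits PSMB5, PSMB6 and PSMB7 differed by -0.20 ± 0.11, -0.003 ± 0.11 and -0.11 ± 0.13 after 3 irradiations, and by 0.07 ± 0.11, -0.13 ± 0.11 and -0.02 ± 0.13 after 42. The ubiquitin receptor PSMD4 differed by 0.26 ± 0.11 after 42 irradiations (adjusted p = 0.303), and the scaffold PSMD2 by -0.16 ± 0.12. PSMD14, which removes ubiquitin chains at the entry, differed by -0.12 ± 0.11, 0.24 ± 0.12 and less than 0.01 from 0 in the 3 comparisons. The activators PSME1 and PSME2, which form one mixed ring and are induced by interferon, differed by -0.21 ± 0.11 and 0.07 ± 0.12 after 42 irradiations. The nuclear activator PSME3 and the large activator PSME4 both differed by 0.10 there, with SE of 0.12 and 0.10, and the inhibitor PSMF1 by 0.18 ± 0.10. After 3 irradiations PSME3 was lower, at 117.6 and 123.7 CPM in dark_3 against 101.5 and 100.4 CPM in blue_3, without overlap. Of the 5 activator and inhibitor genes, 3 were below 0 at that point and 2 above.

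Whether the light effect itself changed between irradiation numbers was tested as a difference of differences, which equals the difference between the changes over time in irradiated and in dark cultures. None of the 43 was called for 42 against 3, 42 against 14 or 14 against 3 irradiations, where 0.435%, 0.0544% and 0.0388% of all genes were. At an unadjusted p under 0.05 there were 7, 3 and 9 of the 43 (11.3%, 8.04% and 8% of all genes), and DESeq2 called none. PSMD11 had the smallest adjusted p, at 0.68 ± 0.20 for 42 against 3 (adjusted p = 0.173) and 0.69 ± 0.20 for 14 against 3 (adjusted p = 0.289). PSMC4 gave 0.88 ± 0.29 for 42 against 3 (adjusted p = 0.27). Over the fits leaving out 1 library, the 42 against 3 median over the 43 genes ran from -0.014 (without dark_42 b) to 0.177 (without blue_42 b). Calls appeared without blue_3 a (PSMD11) and without dark_42 a (PSMB2, PSMB4, PSMC4 and PSMD11), where calls over all genes also rose. Without a filter on low counts 3 of the 43 were called, while calls over all genes rose from 56 to 288.

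The next comparisons set later against earlier cultures. In the dark these differ in time in culture and in the handling of each set of libraries, which cannot be told apart, and they share the dark_3 libraries. Of the 43 genes, 13 were called in dark_14 against dark_3, 12 lower and 1 higher, where 12.7% of all genes were called (4.61% lower, 8.11% higher). The median log2 difference was -0.33 over the 43 genes and 0.02 over all genes. Both dark_14 libraries lay below both dark_3 libraries for 35 of the 43 (30% of all genes) and above for 2 (32.9%).

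In dark_14 the lower genes lay in both the regulatory and the core particle. All 17 regulatory-particle genes were below 0 (median -0.39) and below dark_3 in both libraries, and 8 were called. Of the lid these were PSMD11 (-0.54 ± 0.14, adjusted p = 0.0188), PSMD12 (-0.48 ± 0.13, adjusted p = 0.018), PSMD6 (-0.43 ± 0.13, adjusted p = 0.0368), PSMD8 and PSMD14 (-0.39 ± 0.11, adjusted p = 0.0268). Of the base these were the ATPases PSMC3 (-0.46 ± 0.13, adjusted p = 0.0272) and PSMC6 (-0.49 ± 0.14, adjusted p = 0.0314) and the scaffold PSMD1. In the core particle 13 of 14 genes were below 0 (median -0.34) and 2 were called, the beta-ring gene PSMB2 and the catalytic PSMB6 (-0.35 ± 0.11, adjusted p = 0.0411).

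PSMG1 had the smallest adjusted p of the 43 in this comparison. It stood at 57.2 and 54.4 CPM in dark_3 and at 30.4 and 40.0 CPM in dark_14, so both later libraries were lower, by 1.55-fold (log2 difference -0.63 ± 0.16, adjusted p = 0.0123). PSMD12, a lid scaffold whose promoter is printed above, stood at 122 and 127 CPM in dark_3 and at 80.5 and 97.2 CPM in dark_14. The groups were separate, and dark_14 a was again the lower. PSME3 was also called lower.

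PSME1 was the gene called higher. It stood at 369 and 375 CPM in dark_3 and at 525 and 455 CPM in dark_14, without overlap, a log2 difference of 0.39 ± 0.11 (adjusted p = 0.0258). Its partner PSME2 went from 161 and 161 CPM to 180 and 202 CPM, without overlap, at 0.25 ± 0.12 (adjusted p = 0.178). PSME1 and PSME2 thus lay on the other side of 0 from the regulatory particle.

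The count of calls moved with single libraries while the median moved less. None of the 43 was called without dark_3 a, dark_3 b or dark_14 a, where calls over all genes also fell, from 1638 to 336, 406 and 421, and the median over the 43 genes was -0.34, -0.32 and -0.25. There were 27 calls with no filter on low counts and 26 when only the compared libraries were fitted. Calls over all genes also rose in those fits, from 1638 to 2210 and 2651. Without blue_14 b more genes were called, over all genes too, and the median over the 43 genes was -0.36. Other cell-type transcripts moved in the same libraries. The 6 neuronal markers gave sums of 25.2 and 28.5 CPM in dark_3, against 84.2 and 72.4 CPM in dark_14, and all 6 were called higher. Those of the 7 fibroblast markers were 4.28 and 4.90 CPM against 14.3 and 14.8 CPM, with 3 of 3 tested called higher, while COL1A2, COL3A1, DCN, LUM and PDGFRB stayed below 2 CPM. Their part in the proteasome differences was not tested.

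In dark_42 against dark_3, 16 of the 43 genes were called, 13 lower and 3 higher, where 17.7% of all genes were called (8.26% lower, 9.47% higher). The median log2 difference was -0.24 over the 43 genes and 0.02 over all genes. Both dark_42 libraries lay below both dark_3 libraries for 30 of the 43 (29.7% of all genes) and above for 6 (32.7%). All 17 regulatory-particle genes were again below 0 (median -0.28), and 6 were called.

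PSMG3 fell most. It stood at 174 and 182 CPM in dark_3, at 186 and 169 CPM in dark_14 and at 104 and 84.0 CPM in dark_42. Only the last pair was apart from the rest, 1.89-fold below dark_3 (log2 difference -0.92 ± 0.14, adjusted p = 0.000116) and also below dark_14 (-0.91 ± 0.14, adjusted p = 0.000427). Its partner PSMG4 stayed between 40.1 and 44.7 CPM in all 6 dark libraries, at -0.03 ± 0.12 for dark_42 against dark_3 (adjusted p = 0.911).

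The other alpha-ring chaperone pair split in direction. PSMG2 stood at 33.8 and 35.9 CPM in dark_3, at 39.5 and 32.2 CPM in dark_14 and at 57.3 and 49.8 CPM in dark_42. The last pair was the highest, at 0.62 ± 0.13 against dark_3 (adjusted p = 0.00261) and 0.60 ± 0.13 against dark_14 (adjusted p = 0.00871). PSMG1 was lower in dark_42, at 43.8 and 36.0 CPM (-0.48 ± 0.15 against dark_3, adjusted p = 0.0301). PSMG2 and PSMG3 were the 2 genes of the 43 called in dark_42 against dark_14, where 7.04% of all genes were called (1.81% higher, 5.23% lower). Without dark_14 b only PSMG3 was called there, and without blue_14 a or blue_14 b PSMB6 and PSMD4 were called as well. In this comparison 6 of 6 neuronal markers (sums of 84.2 and 72.4 CPM in dark_14, 25.6 and 17.8 in dark_42) and 2 of 3 tested fibroblast markers were called lower, and their part was not tested.

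In the regulatory particle, the ubiquitin receptor PSMD4 stood at 218 and 227 CPM in dark_3, at 174 and 200.3 CPM in dark_14 and at 149 and 143 CPM in dark_42. Each later pair lay below dark_3, and dark_42 was 1.52-fold lower (-0.61 ± 0.11, adjusted p = 0.000976). PSMD11 stood at 202 and 220.0 CPM in dark_14 and at 224 and 177 CPM in dark_42, both pairs below dark_3, with a difference of -0.61 ± 0.14 at 42 (adjusted p = 0.00559). PSMC4 stood at 104 and 95.8 CPM in dark_3 and fell in dark_42 by 0.76 ± 0.21 on the log2 scale (adjusted p = 0.025). PSMC5 (-0.38 ± 0.11, adjusted p = 0.0187), PSMC1 and the lid subunit PSMD3 were the other 3 called lower. PSMD3, one of the promoters above, stood at 902 and 841 CPM in dark_3 and at 605 and 567 CPM in dark_42. The last 300 exonic bases of PSMC1, where tags of a 3′ library arise, are overlapped by NRDE2 on the opposite strand, and the strand setting used in counting is unknown here, so PSMC1 is uncertain.

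Among core-particle genes, PSMB2, PSMB5 and PSMB7 were called lower, the last 2 being the chymotrypsin-like and trypsin-like catalytic subunits. PSMB5 stood at 247 and 240.0 CPM in dark_3 and at 196 and 184 CPM in dark_42 (-0.36 ± 0.11, adjusted p = 0.0306), without overlap. PSMB6, the caspase-like subunit, stood at 430.0 and 434 CPM against 423 and 428 CPM and differed by -0.02 ± 0.11. PSMA6 was called higher, from 3.01 and 3.46 CPM to 6.28 and 6.37 CPM (0.96 ± 0.31, adjusted p = 0.0369), but 75.3% of its last 300 exonic bases lie within AL121594.1 on the same strand, so its counts are uncertain.

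Among the caps, PSME1 stood at 534 and 604 CPM in dark_42, the highest pair of the 6 groups and 1.53-fold above dark_3 (0.61 ± 0.11, adjusted p = 0.000822). PSME3 (-0.40 ± 0.12, adjusted p = 0.0248) and the inhibitor PSMF1 (-0.34 ± 0.10, adjusted p = 0.0269) were called lower. On the same strand, AL031665.1 overlaps 18.7% of the last 300 exonic bases of PSMF1, and MIR7703 25.7% of those of PSME2. On the opposite strand EMC9 overlaps 9 of those bases of PSME1. The counts of PSMF1 and PSME2 are therefore less certain. PSME4, at 92.2 to 108 CPM over the 12 libraries, was called in no comparison. PSMD4, PSMG3 and PSME1 kept their call in each of 12 fits leaving out 1 library. The count of 16 fell to 3, 5 and 4 without dark_3 a, dark_3 b and dark_42 b, and the median was -0.26, -0.23 and -0.13 there, while calls over all genes fell from 2284 to 765, 840 and 833. The 10 keratinocyte markers gave sums of 6694 and 6908 CPM in dark_3, against 5318 and 4730 CPM in dark_42, with 3 of 10 called lower, and their part in these differences was not tested.

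**Figure D3:**
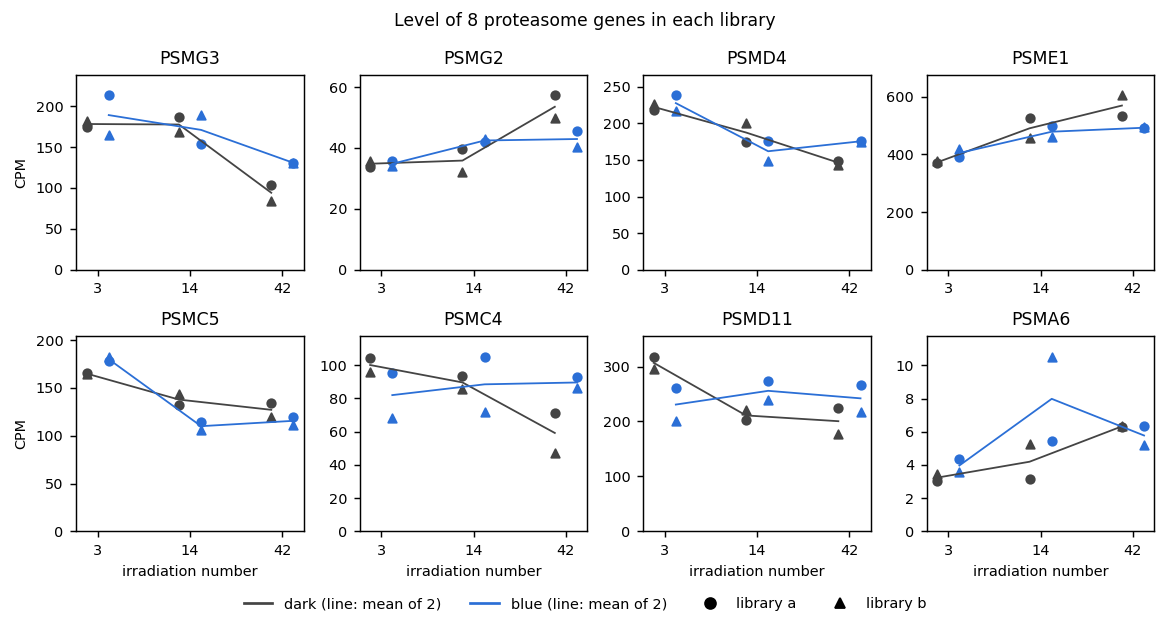
Level (CPM, vertical axes from 0) of 8 genes by irradiation number in dark (grey) and irradiated (blue) cultures; circles are library a, triangles library b, and lines join the means of 2 libraries. In dark cultures PSMG3 is lower and PSMG2 higher at 42 than at 14 irradiations. In both kinds of culture PSMD4 and PSMC5 are lower at 14 and at 42 than at 3 irradiations.

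Irradiated cultures were compared with each other in the same way. These differ in the number of exposures, in time in culture and in handling, which cannot be told apart. Of the 43 genes, 5 were called in blue_14 against blue_3, all lower and all in the regulatory particle, where 6.22% of all genes were called (2.6% lower, 3.62% higher). The median was -0.24 over the 43 genes and 0.01 over all genes. In blue_42 against blue_3, 3 were called, all lower, where 7.78% of all genes were called (3.39% lower, 4.4% higher), with a median of -0.10. None of the 43 was called in blue_42 against blue_14, by edgeR or DESeq2, where 0.241% of all genes were called and 6 of the 43 had an unadjusted p under 0.05 (12.5% of all genes). Without blue_14 a, PSMA4, PSMB1, PSMB3 and PSMD3 were called there, and calls over all genes also rose. The median in that fit was 0.207 over the 43 genes and 0.023 over all genes.

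PSMC5 was called lower at both later points. It stood at 178 and 182 CPM in blue_3, at 114 and 106 CPM in blue_14 and at 119.6 and 112 CPM in blue_42. The later pairs lay well below blue_3, at -0.71 ± 0.11 (adjusted p = 0.0013) and -0.64 ± 0.11 (adjusted p = 0.000716), and each call was kept in all 12 fits leaving out 1 library. In the dark the same gene differed by -0.26 ± 0.11 at 14 (adjusted p = 0.125) and was called lower at 42, as given above. The difference between the irradiated and dark changes was -0.45 ± 0.16 at 14 (adjusted p = 0.421) and -0.26 ± 0.15 at 42 (adjusted p = 0.539).

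PSMD4 stood at 238 and 217 CPM in blue_3, at 176 and 148 CPM in blue_14 and at 176 and 175 CPM in blue_42. It was called at both points (-0.49 ± 0.12, adjusted p = 0.0182, and -0.38 ± 0.11, adjusted p = 0.0436). PSMG3 went from 213 and 165 CPM in blue_3 to 130.5 and 130.6 CPM in blue_42 (-0.53 ± 0.13, adjusted p = 0.0171). That change did not differ detectably from the one in the dark (difference 0.39 ± 0.19, adjusted p = 0.457).

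The other calls at 14 were PSMC3 (-0.53 ± 0.13, adjusted p = 0.0243), PSMC1 (-0.58 ± 0.17, adjusted p = 0.0497) and PSMD7, a lid subunit whose last 300 exonic bases are overlapped by AC009120.2 on the opposite strand (-0.48 ± 0.14, adjusted p = 0.0478). Without blue_3 b or blue_14 b only PSMC5 was still called at 14, and calls over all genes fell too. The median over the 43 genes was -0.245 and -0.152 in those fits, against -0.333 without blue_14 a. Without blue_3 a, blue_42 a or blue_42 b only PSMC5 was still called at 42, and calls over all genes again fell. The medians at 42 were then -0.119, -0.151 and -0.024. PSMG2 was not called in irradiated cultures (0.30 ± 0.13 at 42, adjusted p = 0.178), nor was PSME1 (0.28 ± 0.11, adjusted p = 0.133). Their changes over time did not differ detectably from those in the dark either (adjusted p = 0.54 and 0.442). Neuronal markers were lower at 42, with sums of 52.6 and 69.6 CPM in blue_3 against 23.1 and 22.3 CPM in blue_42. Of these, 6 of 6 were called lower at 42 and 1 at 14. Of 3 tested fibroblast markers 2 were called lower at 42, and the 1 tested endothelial marker higher. Of 10 keratinocyte markers 2 were called higher at 14 and 1 at 42, unlike in dark_42. The part of these markers was not tested.

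**Figure D4:**
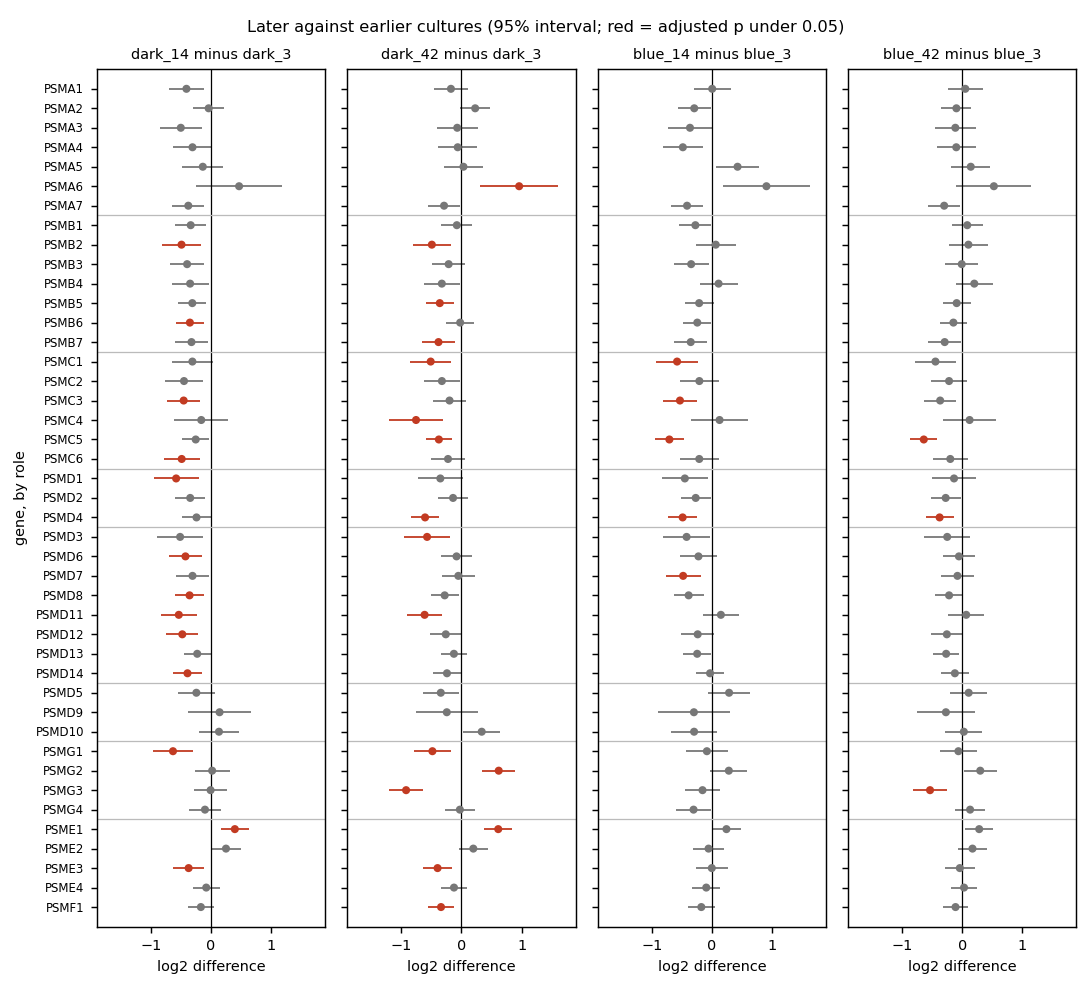
Log2 difference of each of the 43 genes (rows, by role) between later and earlier cultures, dark (left panels) and irradiated (right panels); points are edgeR estimates, lines 95% intervals, and red marks an adjusted p under 0.05. In dark_14 against dark_3 the points of all 17 regulatory-particle genes lie left of 0, with PSME1 called to the right.

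Within a group the 2 libraries often differed across many of the 43 genes at once. The level was higher in library a for 35 genes in blue_14, 35 in blue_42 and 32 in dark_42, and for 11 in dark_14, against 23 in dark_3 and 22 in blue_3. The median log2 difference of a minus b over the 43 genes was 0.193, 0.115, 0.161 and -0.152 in blue_14, blue_42, dark_42 and dark_14. Over 8689 genes with a mean of at least 10 CPM it was 0.008, 0.013, 0.03 and -0.014. The SD of this difference over the 43 genes was 0.10 in dark_3 and 0.13 to 0.29 in the other groups. Over the 8689 genes it was wider, at 0.16 in dark_3 and 0.21 to 0.35 in the others. PSMB2, PSMB4, PSMC4, PSMD5 and PSMD11, singled out after their values were seen, were all lower in blue_3 b than in blue_3 a and lower in dark_42 b than in dark_42 a. Other genes, among them PSMA1, PSMA5, PSMC2 and PSMG3, were lower in the same libraries, so the genes singled out are not a distinct set.

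**Figure D5:**
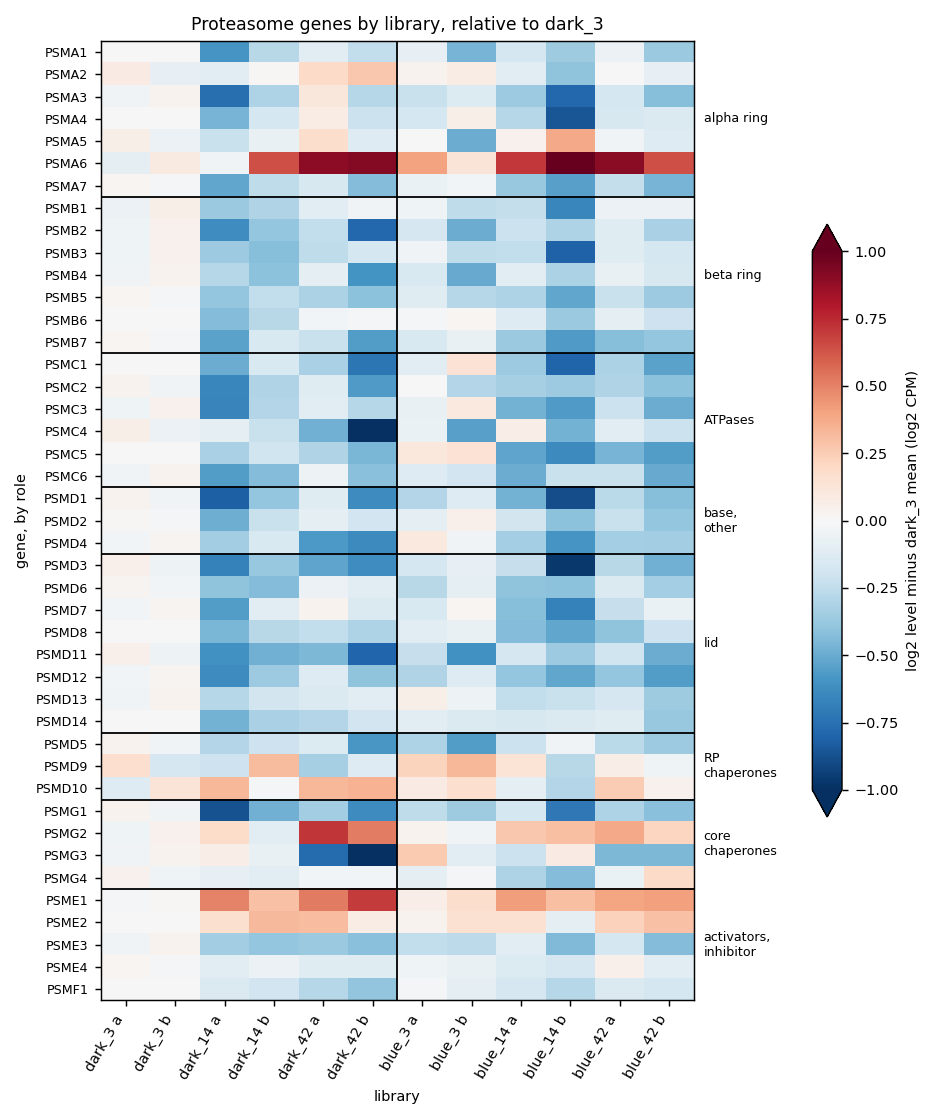
Log2 level of each of the 43 genes (rows, grouped by role; RP stands for regulatory particle) in each of the 12 libraries (columns) relative to the dark_3 mean, red higher and blue lower, with colours saturating at 1. Dark_14 a and blue_14 b are blue through most of the core and regulatory particle, and PSME1 is red in all later libraries.

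Of the 43 genes, 25 (58.1%) were called in at least 1 of the comparisons over time, as were 29.5% of all tested genes, and 0 in a comparison of light, as were 1.38%. The 43 genes had smaller SE, so smaller differences could be called. Their median SE was 0.135 in dark_14 against dark_3 (0.176 over all genes) and 0.132 in dark_42 against dark_3 (0.169 over all genes). The 18 others included the alpha-ring genes other than PSMA6, the beta-ring genes PSMB1, PSMB3 and PSMB4, and the base chaperones PSMD5, PSMD9 and PSMD10. PSMD9, which had between 5.51 and 8.90 CPM, is overlapped along its last 300 exonic bases by WDR66 on the same strand.

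Another 35 genes of the pathway were tested. None was called in blue against dark at 3, 14 or 42 irradiations. In dark_42 against dark_3, 3 were called higher and 4 lower, and in dark_14 against dark_3, 1 higher and 2 lower, beside 17.7% and 12.7% of all tested genes called either way. POMP, the chaperone that matures the core particle, went from 458 and 450 CPM in dark_3 to 356 and 339 CPM in dark_42, without overlap (-0.39 ± 0.10, adjusted p = 0.0133). It was also called lower in dark_14, in blue_14 (-0.51 ± 0.11, adjusted p = 0.00789) and in blue_42 against the matching 3-irradiation cultures. SQSTM1, a receptor that carries ubiquitinated cargo to autophagy, went from 392 and 427 CPM in dark_3 to 659 and 633 CPM in dark_42 (0.66 ± 0.11, adjusted p = 0.000273), and was called higher in the same 4 comparisons.

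UBA1, the main ubiquitin-activating enzyme, fell from 262 and 258 CPM in dark_3 to 181 and 143 CPM in dark_42 (-0.68 ± 0.14, adjusted p = 0.00272), while UBA6, the alternative activating enzyme, was higher (0.39 ± 0.12, adjusted p = 0.0251). USP14, a deubiquitinase bound to the proteasome, was higher (0.38 ± 0.11, adjusted p = 0.0248). SEM1, a small lid subunit whose symbol lies outside the name pattern, was lower (-0.42 ± 0.12, adjusted p = 0.0187). In dark_14 against dark_3, UFD1, a cofactor of the extraction ATPase, was called lower (-0.51 ± 0.15, adjusted p = 0.0384) beside POMP, and SQSTM1 higher.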

How the data were processed

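RNA was TRIzol total RNA, made into QuantSeq 3′ mRNA-Seq FWD libraries per the labels' protocols. The table deposited by the authors gives raw read counts per gene and library, made with STAR and featureCounts on GRCh38 per the submitters' processing notes; versions, annotation release and strand setting are not given. Such tags mark transcript 3′ ends, so counts need no length scaling, and PCR copies may inflate them.

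Counts of all 12 libraries were fitted in edgeR 4.0.16 (R 4.3.3): TMM scaling, filterByExpr at a minimum count of 10, one robust quasi-likelihood model with a mean per group (6 residual degrees of freedom before moderation), two-sided tests, Benjamini-Hochberg adjustment over 12878 genes per comparison. Standard errors and intervals derive from that fit. Genes were called at an adjusted p under 0.05. DESeq2 1.42.0, RLE scaling, other filters, non-robust estimation, subsets of libraries, a replicate block and leaving out each library were alternatives. Scripts were tested on simulated counts. Gene models came from GENCODE (GRCh38), promoters from RefSeq (GRCh38.p14).

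The 43 genes, the lists and the tests were chosen with earlier results of these data known. Named genes were those called (at most 8 per comparison, by adjusted p, in full), the 3 largest light differences each way, and a set of catalytic, receptor, activator and chaperone genes whatever their values; other called genes are named to complete counts. Separate rows for 45 pseudogenes held counts in 21 cases, 1 with at least 120. Of the other pathway genes called, 1 is not reported here by name, while counts include it.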

Additional observations from a re-analysis of the deposited data

How the results depend on the processing

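The counts of called genes among the 43 moved with the settings. For the genes named by the rule, 18 values were called in blue against dark or in 42 against 3; recomputing each under every alternative gave 360 values, of which 307 kept the call and 0 changed sign. All 18 called values came from 42 against 3, since none of the 43 was called in blue against dark. The 14 against 3 comparisons were not in this tally. Most alternatives reuse the same libraries, so a called value could hardly change sign, and the 0 says little about directions. Of 2808 recomputed values of uncalled results, 95 changed sign. RLE scaling, DESeq2, non-robust estimation and a filter at 5 CPM left every count within 1.5 times its value. With no filter on low counts there were 2 genes for blue against dark at 42, 3 and 1 for the differences of the light effect (42 minus 3 and 14 minus 3), 27 for dark 14 against 3, 4 for dark 42 against 14, and 12 and 5 for irradiated 14 and 42 against 3. With only the compared libraries there were 26 for dark 14 against 3, 2 for irradiated 14 against 3 and 5 for irradiated 42 against 3, which was also 5 without the 14-irradiation libraries. Calls over all genes also rose with no filter in each of these comparisons, as from 1638 to 2210 for dark 14 against 3. With only the compared libraries they went from 1638 to 2651, 801 to 503 and 1002 to 1417, respectively.

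The letters a and b were not taken to pair the libraries, since not every correlation of their deviations between groups was above 0.1. Over 8689 genes it was 0.405 between dark_42 and blue_42, 0.221 and 0.276 between these and blue_14, and -0.287 to -0.442 between dark_14 and those 3 groups. With the replicate block there was 1 gene (PSMC4) for blue against dark at 42 and 1 for the 42 minus 3 difference, 3 for irradiated 14 against 3, 12 for dark 14 against 3, 15 for dark 42 against 3, 3 for dark 42 against 14 and 2 for irradiated 42 against 3. A replicate block with the dark_14 letters crossed, chosen after seeing the data, gave 22 for dark 14 against 3 and 6 for dark 42 against 14.

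Leaving out 1 library at a time, counts ran from 0 to 2 for blue against dark at 42, 0 to 4 for the 42 minus 3 difference, 0 to 22 for dark 14 against 3, 3 to 19 for dark 42 against 3, 1 to 4 for dark 42 against 14, 1 to 11 for irradiated 14 against 3, 1 to 3 for irradiated 42 against 3 and 0 to 4 for irradiated 42 against 14. Leaving out a compared library leaves 1 in its group, assumed to vary like the rest. Calls over all genes moved in these fits as well. The causes of the other shifts were not tested. Depth limits PSMA6 and PSMD9 most.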
